A study of Arabidopsis thaliana with 6 samples.

Results

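Young leaves of cmt3 mutant Arabidopsis thaliana were compared with young leaves of wild type Col-0. The comparison takes the 4 arrays labelled cmt3 or wild type, 2 of each, out of 6 arrays, and every gene model on them. The remaining 2 arrays, from kyp mutants, share the estimate of the spread and are given beside the results. Plants of all 3 genotypes were untreated, soil-grown under long days and 4 weeks old. The labels name no allele for either mutant and nothing in them says that arrays of 1 genotype stand for different plants; p-values therefore reflect only how far the arrays spread, which may be technical.

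CMT3 is a plant DNA methyltransferase whose chromodomain binds histone H3 dimethylated at lysine 9. It methylates cytosines in the CHG context, in which H is any base but G. KYP, a histone methyltransferase, binds DNA methylated at such sites and methylates lysine 9 of histone H3 in turn, so that each mark maintains the other. In leaves both marks lie mostly on transposable elements and repeats, which they help to keep silent. Copia and gypsy elements are retrotransposons with long terminal repeats (Athila is a gypsy family), LINE elements are retrotransposons without them, and CACTA, Mutator and hAT elements are DNA transposons.

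Each array gave 1 intensity for each of 30361 gene models, normalized by the authors with RMA and summarised from 1 to 3 probes. All levels below are log2 intensities, and all differences are log2 differences of cmt3 minus wild type with limma's standard error (SE). A gene was called where the Benjamini-Hochberg adjusted p of limma, over all gene models, was under 0.05. Array medians lay between 9.89 and 9.96. The wild type arrays and kyp replicate 1 were on 1 slide, and both cmt3 arrays and kyp replicate 2 on the other, so slide and genotype cannot be told apart from wild type and cmt3 alone. Across gene models the cmt3 arrays correlated at 0.987 with each other, cmt3 replicate 1 at 0.989 with the kyp array of its slide, and cmt3 with wild type arrays at 0.968 to 0.977. The leaf label was borne out by 9 photosynthesis genes, whose wild type median was 15.94, near the top of the scale. Wild type medians were 5.70 for 9 root markers, 5.87 for 8 seed markers, 6.32 for 7 flower markers and 5.64 for 7 pollen markers, and no member of these 5 lists was called.

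CMT3 itself was lower in cmt3 leaves and was read in every array. It stood at 12.61 and 12.59 on the wild type arrays, 12.79 and 12.70 on the kyp arrays, and 10.94 and 10.97 on the cmt3 arrays. Both cmt3 arrays lay below all others, and the difference of -1.65 ± 0.09 (SE) was called (adjusted p = 0.0159, limma). The gene has 3 probes and lies on chromosome 1 (26251990 to 26257248 in the coordinates of the files); their place relative to the mutation is not given in the sources used here. Of the other 26 genes in a list of DNA methylation and silencing factors none was called. Over all 27 listed genes, CMT3 included, 18 differences were positive and the median was 0.06. Both cmt3 arrays lay above both wild type arrays for 12 (44.4%, against 32.4% over all models) and below for 4 (14.8%, against 25%). CMT2, the second chromomethylase of leaves, stood at 13.53 and 13.43 in wild type and 13.06 and 13.13 in cmt3, and DME, a DNA demethylase, at 13.36 and 13.38 against 13.04 and 13.07. For both genes the cmt3 arrays lay below the wild type arrays, but the differences of -0.38 ± 0.14 and -0.31 ± 0.09 did not pass (adjusted p = 0.2 and 0.16, limma). RNA came from whole leaves, so fewer cells of a type and less RNA per cell cannot be told apart.

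Across the array 170 gene models were called higher in cmt3 (0.56%) and 55 lower (0.181%). Rises and falls of 4-fold or more without overlap between the arrays, a count with no test, numbered 277 (0.912%) and 297 (0.978%). Among called models the median rise was 3.16 on the log2 scale, or 8.96-fold, against a median fall of -1.84. Most rises started from a low level. With gene models ranked by wild type level and split into 4 equal parts, the lowest part held 103 of the 170, the next 55, the next 12 and the highest 0. Their median level was 5.79 in wild type and 10.08 in cmt3. The same 4 parts held 3, 22, 19 and 11 of the falls. With any 1 of the 6 arrays left out 18 to 77 models were called higher and 0 to 45 lower. A fold from the lowest levels is a fold of intensity and can understate the change in transcript.

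**Figure D1:**
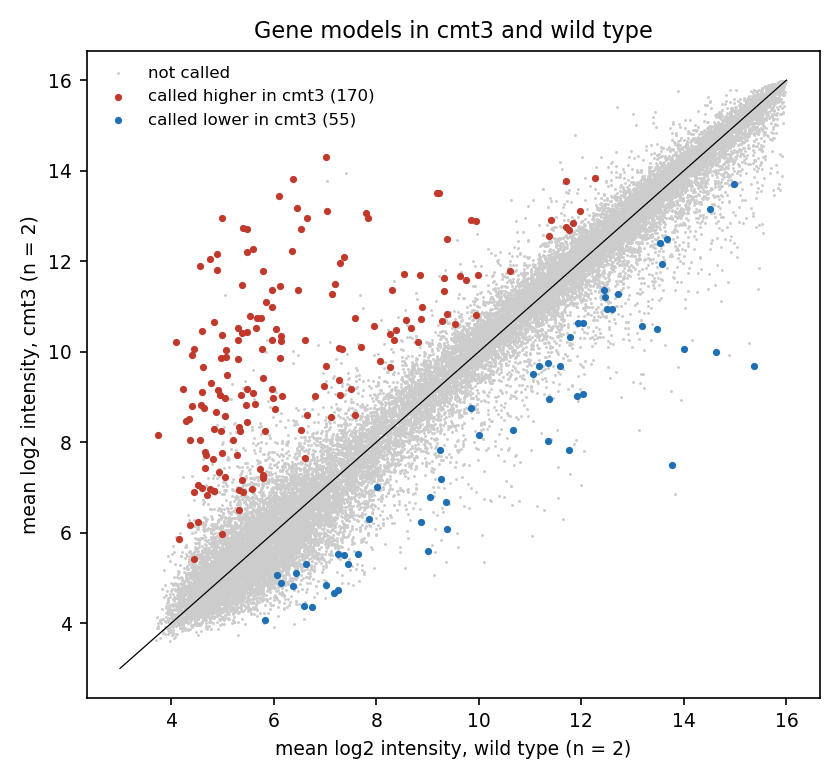
Mean log2 intensity of 30361 gene models in cmt3 (vertical axis, n = 2 arrays) against wild type (horizontal axis, n = 2 arrays), with the line of equal levels. The 170 models called higher (red) lie mostly at the left, where wild type levels are low, and the 55 called lower (blue) spread over higher levels.

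The kyp genotype was on both slides, with a single array on each. The difference between its arrays therefore holds slide and replicate together, which cannot be told apart. Between the kyp array of the cmt3 slide and that of the wild type slide, the median absolute difference was 0.21 over the 170 rising genes and 0.16 over the 55 falling genes, against 0.19 over all models. On their own slide, both cmt3 arrays lay above kyp replicate 2 for 146 of the 170 and below it for 46 of the 55. These counts rest on a single kyp array and have no share over all gene models beside them. The genes were picked on the same cmt3 arrays, so the counts are not a test within the slide. With the slide as a block no gene passed an adjusted p of 0.05 (limma). All 225 then kept their direction and had an unadjusted p under 0.05 (limma), with medians of 3.32 and -1.85, while 2289 of all gene models had one. The 225 were picked by a small p for the same contrast on the same arrays. Their small p here was thus largely fixed in advance and is not a test of the slide. The difference between the kyp arrays enters the spread behind every call, so it is small among called genes in part by construction.

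Transposable element genes led the rises. Of 2465 element genes on the array 83 (3.37%) were called higher and 4 lower, against 87 (0.312%) and 51 of the other 27896. The 2 groups differed in wild type level, with medians of 5.63 and 10.48. The lowest of the 4 parts by wild type level held 1678 of the 2465 and 5913 of the 27896. In that part 1.36% of all gene models were called higher and 3 of 7591 lower. The part of starting level was not tested. The largest rise was that of AT2G05040, a gypsy element at 1783116 to 1786460 of chromosome 2. It stood at 4.77 and 5.22 in wild type, 10.82 and 10.97 in kyp and 12.81 and 13.08 in cmt3. The 3 genotypes did not overlap, and the rise of 7.95 ± 0.20 (SE) was called (adjusted p = 0.00256, limma). The copia element AT3G46183 read 5.56 and 4.24 in wild type, 7.65 and 6.98 in kyp and 12.12 and 12.22 in cmt3. Here most of the difference separated cmt3 from both other genotypes (7.27 ± 0.51 against wild type, adjusted p = 0.0244, limma). Another copia element, AT5G19097, was equally high in both mutants, at 13.17 and 12.66 in kyp and 13.07 and 13.28 in cmt3, from 6.87 and 6.04 in wild type.

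**Figure D2:**
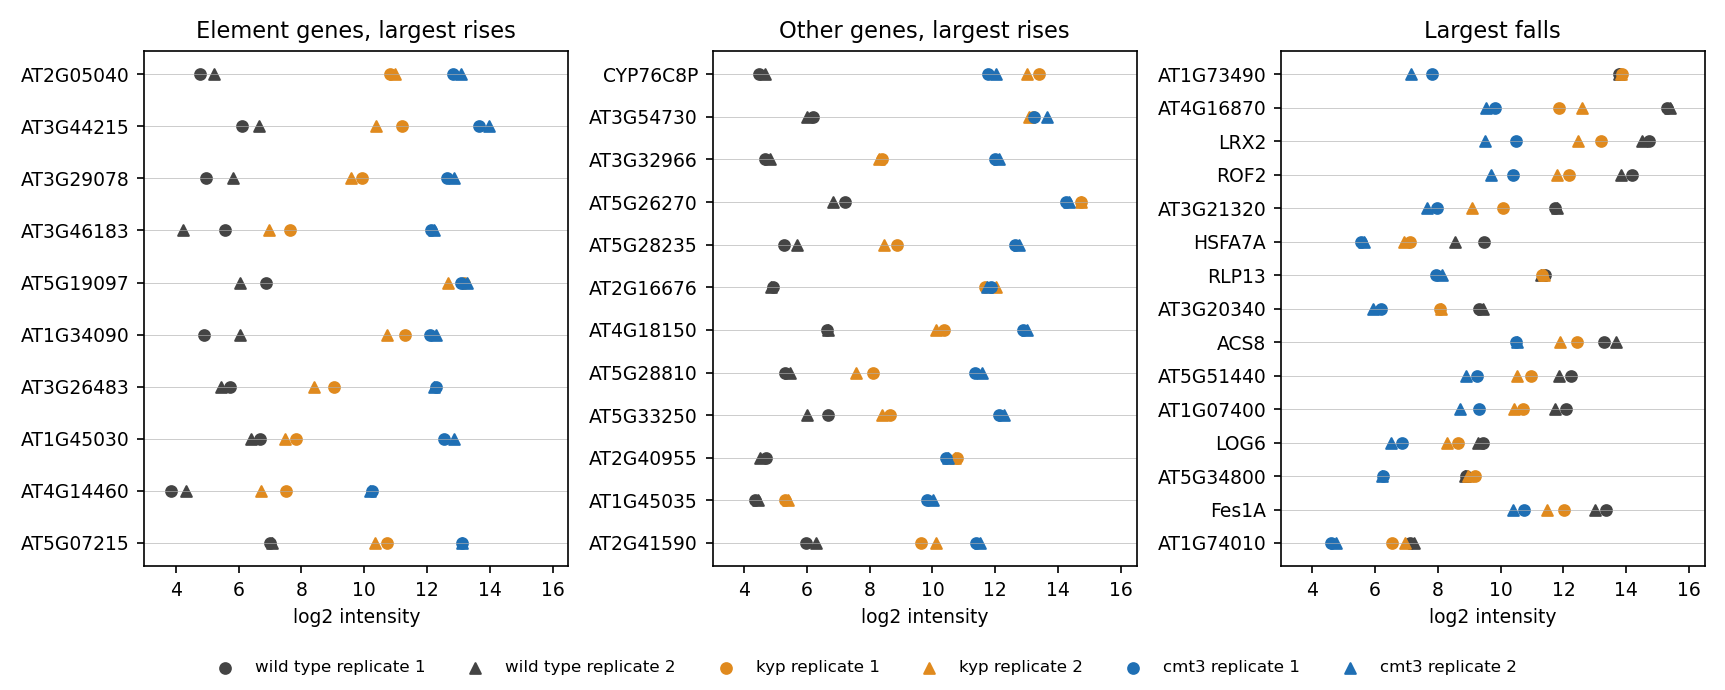
Log2 intensity on each of the 6 arrays (circles, replicate 1; triangles, replicate 2) for the 10 element genes and 12 other genes with the largest rises and the 15 genes with the largest falls in cmt3. The cmt3 points (blue) lie beyond the wild type points (grey) in every row, and the kyp points (orange) range from the wild type level (AT1G73490, RLP13) to the cmt3 level (AT2G16676).

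The superfamilies differed in how many members were called. Copia gave 26 of 483 (5.38%), LINE 20 of 310 (6.45%) and CACTA 20 of 340 (5.88%), all about 10 times the share over all gene models. The lowest part of all gene models by wild type level, where most element genes lay, had 1.36% called higher. Fewer were called among Mutator (5 of 273, 1.83%), hAT (3 of 77, 3.90%), gypsy other than Athila (5 of 372, 1.34%) and Athila (4 of 537, 0.745%). The called members rose by a median of 4.66 for copia, 4.40 for LINE, 4.16 for CACTA and 1.67 for Athila. Most members of each superfamily did not move with them: the median difference over all members lay between -0.05 (gypsy other than Athila) and 0.18 (CACTA), beside 0.03 over all gene models.

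Within CACTA, called genes included both proteins that these transposons encode, 6 of the 37 genes matched to TNP1 and 8 of the 102 matched to TNP2. AT2G05660, a TNP2 gene, read 6.21 and 5.74 in wild type and 11.40 and 11.34 in cmt3. AT1G33570, a TNP1 gene, read 8.06 and 7.55 in wild type and 13.22 and 12.90 in cmt3, and the next model, AT1G33580, another CACTA gene, rose by 4.66. On all of these the mutant and wild type arrays were separated by more than 4-fold. The Mutator genes AT5G27345, AT1G78095 and AT4G08680, matched to mudrA of maize MuDR, were at nearly the same level in both mutants. AT4G08680 read 6.40 and 6.80 in wild type, 10.34 and 10.05 in kyp and 10.53 and 10.004 in cmt3. The hAT gene AT3G43686, matched to the transposase of Tag2, likewise rose by 4.24 in cmt3 with a kyp difference of 4.24. A pair of gypsy genes, AT3G33076 and AT5G28335, differed from each other by at most 0.07 on any array. They may share probes, since near-identical copies cannot be separated without probe sequences, and were counted as given.

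The share called differed with location. In 1 Mb windows in which at least 25% of gene models were element genes, which are 21 of 121 windows, 28 of 1794 element genes (1.56%) were called higher. In the other windows 55 of 671 (8.20%) were. The share was higher outside the element-rich windows for copia (23 of 227 against 3 of 256), LINE (16 of 155 against 4 of 155), CACTA (8 of 52 against 12 of 288) and Mutator (4 of 95 against 1 of 178). Gypsy other than Athila hardly differed (1 of 59 against 4 of 313). Over all element genes the order was the same by size of change. A rise of 4-fold or more without overlap between cmt3 and wild type arrays was seen in 60 element genes (3.34%) of the rich windows and 80 (11.9%) of the others, beside 0.912% over all gene models. By this count the order was reversed for hAT (2 of 32 in rich windows, 2 of 45 in others) and Athila (7 of 516 and 0 of 21). Wild type levels were alike, with medians of 5.59 and 5.79, as were the lengths of the models, with medians of 2677.5 and 2604 bp. Called element genes were longer than the rest, at a median of 3912 against 2623 bp. For all element genes together, every processing alternative under which any were called kept the order of the windows. With an intensity trend the shares were 3.62% and 12.8%.

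**Figure D3:**
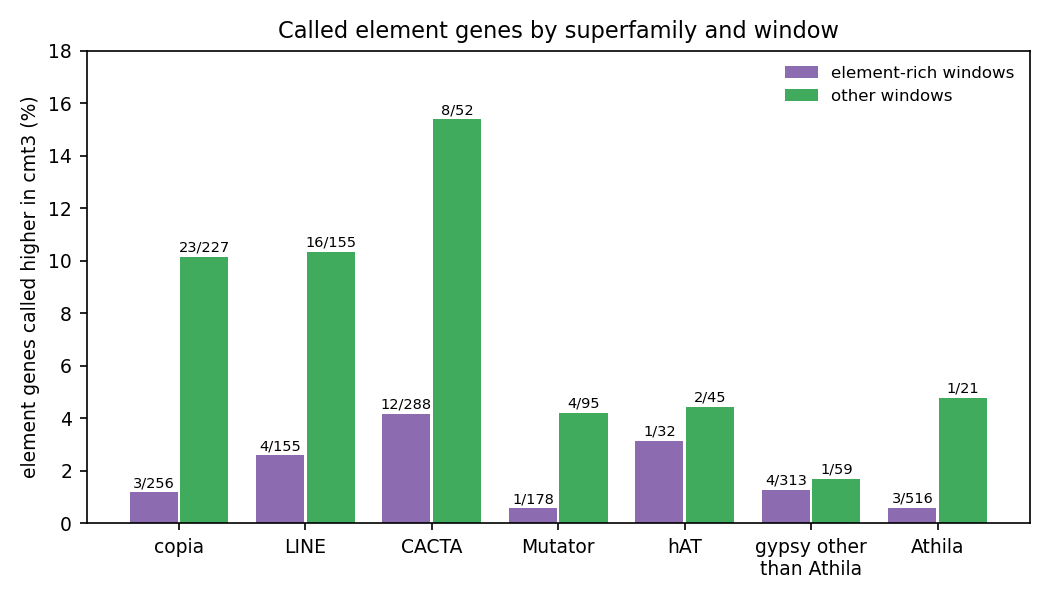
Percentage of element genes called higher in cmt3 (vertical axis) by superfamily, in 1 Mb windows rich in element genes (purple) and in other windows (green); the fraction above each bar is called over measured genes. For copia, LINE and CACTA the green bars stand above 10% and the purple bars below 5%.

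Genes next to elements rose with them in places. Outside elements, 32 of the 1693 genes within 2 kb of an element gene (1.89%) were called higher, against 55 of 26042 farther away (0.211%). The 2 groups differed in wild type level, with medians of 6.45 and 10.68. The lowest of the 4 parts by wild type level, with 1.36% called higher, held 771 of the 1693 and 5141 of the 26042. Outside the element-rich windows the counts were 8 of 768 (1.04%) and 44 of 24519 (0.179%). The part of starting level was not tested. The called genes formed 12 runs of neighbours with at most 1 model between them, 25 genes in all, and 7 of these runs joined an element gene to another kind of gene. In the only run of 3, on chromosome 1 between 17026848 and 17032822, the copia gene AT1G45020 rose by 6.005, the LINE gene AT1G45030 by 6.18 and the pseudogene AT1G45035 by 5.52. AT1G45030 read 6.67 and 6.40 in wild type, 7.83 and 7.48 in kyp and 12.54 and 12.88 in cmt3. AT1G45035 read 4.36 and 4.44, then 5.30 and 5.39, then 9.82 and 10.03. In this run kyp stayed about 1 log2 unit above wild type while cmt3 stood above 9.8. The models on both sides, AT1G45015 and AT1G45040, read 5.41 and 4.57 and 5.33 and 5.09 in cmt3 and were not called.

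Of the other 11 runs 6 joined an element gene to another kind of gene, 2 held CACTA genes alone and 3 held no element gene. The LINE gene AT2G41580 rose by 5.03 and the adjacent AT2G41590, of unknown function, by 5.33. AT3G29078, a LINE gene, rose by 7.34 from 4.96 and 5.84, and AT3G29080, the next model, by 3.69. AT2G15510, a LINE gene, rose by 5.83 and AT2G15520, of unknown function, by 3.14, and in kyp they differed from wild type by 1.69 and 0.06. In AT2G13450 and the LINE gene AT2G13460 the kyp differences (4.95 and 4.68) were close to those in cmt3 (5.24 and 5.07).

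Of the 12 other genes with the largest rises, 10 are of unknown function or pseudogenes with no further name. AT3G54730 read 6.20 and 6.004 in wild type and 13.23 and 13.64 in cmt3, AT5G26270 read 7.21 and 6.83 against 14.25 and 14.34, and AT2G40955 read 4.70 and 4.51 against 10.42 and 10.51. In these 3 genes the kyp arrays were within 0.6 of the cmt3 arrays. The annotation names CYP76C8P, a cytochrome P450 pseudogene that overlaps a gene on the other strand, at 4.47 and 4.67 in wild type and 11.78 and 12.03 in cmt3; which strand its probes read is not known. Genes annotated as cysteine-type peptidases or Ulp1 proteases, a class of SUMO proteases that some plant DNA transposons carry, gave 5 called of 122 (4.10%, against 0.56% over all models). AT5G28235 rose by 7.23, AT5G45570 by 5.04, AT4G08430 by 4.21, AT2G06430 by 2.80 and AT2G04980 by 2.42. They were not counted among the element genes, because their descriptions name no element.

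Genes with an annotated function were rare among the rises, 21 of 15073 (0.139%). Regulators of the epidermis and of flowering were among them, with moderate changes. GIS, a zinc finger protein that promotes trichome formation, read 5.34 and 5.21 in wild type, 6.05 and 6.23 in kyp and 7.47 and 7.95 in cmt3 (2.43 ± 0.20, adjusted p = 0.031, limma). ETC2, a small MYB protein that represses trichome formation, read 9.95 and 9.96 in wild type and 10.84 and 10.80 in cmt3 (0.87 ± 0.09, adjusted p = 0.0473, limma). In both genes the 3 genotypes were ordered wild type, kyp, cmt3 without overlap. None of the 7 listed trichome genes was called, and their median difference was -0.15. FD, the transcription factor that partners with the flowering signal FT, rose by 1.04 ± 0.10, from 11.71 and 11.70 to 12.80 and 12.70. MAF5, a repressor of flowering of the FLC family, fell by 2.25 on the log2 scale, from 9.002 and 9.09 to 6.65 and 6.93.

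Among 22 genes of the circadian clock and its outputs FKF1, an F-box protein that senses blue light and day length, was called higher, and both cmt3 arrays lay above both wild type arrays for 11 (50%, against 32.4% over all models) and below for 5. The list's median was 0.19, and 0.09 with the slide as a block or without wild type replicate 1. FKF1, which lies 0.74 Mb from CMT3, read 11.76 and 11.64 in wild type, 12.22 and 12.33 in kyp and 13.55 and 14.00 in cmt3. PRR3, a clock regulator that stabilises TOC1 and was not in the list, rose by 1.14, from 11.999 and 11.96 to 13.08 and 13.15. TOC1 itself read 14.63 and 14.71 in wild type and 14.43 and 14.16 in cmt3 and did not pass (-0.38 ± 0.15, adjusted p = 0.23, limma). LUX, of the evening complex, stood at 0.64 and CDF1 (AT5G62430), a repressor of CONSTANS that FKF1 targets, at 0.54, neither called.

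NIP5;1, a boric acid channel, read 7.57 and 7.43 in wild type and 9.29 and 9.05 in cmt3. AACT1 (AT5G61160), named as an anthocyanin acyltransferase, read 4.83 and 4.57 against 6.83 and 6.81, while kyp stood at 4.30 and 4.52. AT5G61520, a sugar transporter, rose by 1.19 and AT1G06790, a subunit of DNA-directed RNA polymerase, by 1.02. Among 14 loci that earlier work found silenced by DNA methylation, AT4G08680, QQS and SDC were called higher (21.4%, against 0.56% over all models) and AT4G16870 lower. The list was chosen with earlier results of these data known, so its shares describe the members and are not a test. Of the 14, only 2 lay in the lowest part of the gene models by wild type level. Most of the list thus did not start low in these leaves, and its falls are not shown to be falls of silent loci. The list as a whole did not share the rises. Over all 14 loci, called ones included, the median was -0.26 and 11 differences were negative. Both cmt3 arrays lay below both wild type arrays for 9 of them (64.3%, against 25% over all models). SDC, an F-box gene with a methylated repeat in its promoter, read 8.002 and 7.42 in wild type, 8.61 and 8.43 in kyp and 10.03 and 10.19 in cmt3. QQS, an orphan gene known for its effect on leaf starch, read 9.43 and 9.23, then 12.04 and 11.91, then 11.56 and 11.69. FWA, which is silenced by methylation of promoter repeats, read 5.57 and 5.70 in wild type and 5.19 and 5.47 in cmt3, and SUP, a floral regulator with known methylated alleles, 5.01 on both wild type arrays and 5.23 and 4.79 in cmt3.

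The element gene AT4G16870, a copia gene at 9483974 to 9488416 of chromosome 4, went against its class. It was among the brightest models in wild type, at 15.31 and 15.41, and read 11.86 and 12.59 in kyp and 9.83 and 9.54 in cmt3. No 2 genotypes overlapped, and the difference of -5.68 ± 0.28 was called (adjusted p = 0.0121, limma). It lies inside the RPP4 cluster of disease resistance genes, of which none was called. RPP4, the next model, read 14.93 and 15.09 in wild type and 14.33 and 14.24 in cmt3 (-0.73 ± 0.13, adjusted p = 0.0943, limma). SNC1 read 13.57 and 13.70 against 12.58 and 12.47 (-1.11 ± 0.29, adjusted p = 0.139). AT4G16880, between RPP4 and SNC1, read 10.79 and 11.03 against 11.56 and 11.67 (0.70 ± 0.13, adjusted p = 0.0997). The copia genes AT2G05930 and AT2G07420 and the Athila gene AT4G06581 were the other element genes called lower, by -2.09, -1.26 and -1.01, and kyp stood at -2.09, -1.17 and -1.36.

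Of the 55 genes called lower, 29 had an annotated function. This is 0.192% of such genes, close to the 0.181% over all models. ACS8, an ACC synthase of ethylene synthesis, read 13.28 and 13.67 in wild type, 12.42 and 11.88 in kyp and 10.49 and 10.51 in cmt3. LOG6, of the LONELY GUY family of cytokinin-activating enzymes, read 9.43 and 9.27, then 8.63 and 8.29, then 6.85 and 6.50. GH3.3, which conjugates auxin to amino acids, read 11.65 and 11.08, then 9.84 and 9.61, then 8.83 and 9.09. In all 3 genes kyp lay between wild type and cmt3. ATGA2OX3, which inactivates gibberellins, fell by 2.21 on the log2 scale, IAA2, an auxin response repressor, by 1.36 and TMAC2, a repressor of abscisic acid response, by 1.46. Among the 22 listed hormone markers GH3.3 was the 1 called, and the median was -0.25. GA3OX1, which makes active gibberellin, read 10.11 and 9.82 in wild type and 12.19 and 13.01 in cmt3 but did not pass (2.64 ± 0.41, adjusted p = 0.0864, limma).

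Genes of the heat response were lower in cmt3. The gene lists were chosen with earlier results of these data known, so their shares describe the members and are not a test. All 23 measured heat response chaperones and cofactors had a negative difference, with a median of -1.72. For 17 of them (73.9%) both cmt3 arrays lay below both wild type arrays, against 25% over all models, and 2 were called. At least 4-fold below wild type without overlap were 11 (47.8%), against 0.978% over all models. ROF2, a peptidyl-prolyl isomerase of the heat response, read 14.19 and 13.83 in wild type, 12.19 and 11.78 in kyp and 10.40 and 9.70 in cmt3 (-3.96 ± 0.31, adjusted p = 0.0288, limma). AT5G51440 read 12.24 and 11.85, then 10.97 and 10.53, then 9.23 and 8.90. HOP3, a cochaperone, read 14.17 and 13.60, then 12.22 and 11.57, then 10.21 and 9.09, and HSP70 (AT3G12580) read 15.58 and 15.32, then 14.34 and 13.52, then 12.20 and 10.58. Neither passed (-4.23 ± 0.48 and -4.06 ± 0.62, adjusted p = 0.0607 and 0.0860, limma). Fes1A, a nucleotide exchange factor for HSP70, was not in the list and fell by 2.61.

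Not every heat gene followed. HSP18.2 read 7.60 and 7.72 in wild type and 7.53 and 7.74 in cmt3, and HSP21 read 5.82 and 5.17 against 4.97 and 5.77. Among 19 heat shock factors 11 had both cmt3 arrays below both wild type arrays (57.9%, against 25%) and 6 above (31.6%, against 32.4%). Their median was -0.48, -0.27 without cmt3 replicate 2, -0.73 without cmt3 replicate 1 and -0.21 with the slide as a block. HSFA7A was called, from 9.47 and 8.54 in wild type to 5.54 and 5.66 in cmt3, and HSFA2 read 14.98 and 14.76 against 12.55 and 10.52. HSFA6A read 6.56 and 5.92 in wild type and 7.94 and 7.58 in cmt3 and was not called. Chaperones of the endoplasmic reticulum stayed near wild type: none of 11 was called, the median was 0.03, and BIP2 read 15.62 and 15.58 against 15.65 and 15.61.

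Jasmonate genes were lower on both cmt3 arrays, and by more on replicate 2. This list, too, was chosen with earlier results of these data known. All 23 measured genes of jasmonate synthesis and response had a negative difference, with a median of -1.86. For 21 (91.3%, against 25% over all models) both cmt3 arrays lay below both wild type arrays, and 11 (47.8%, against 0.978%) were at least 4-fold below without overlap. Only VSP1, a vegetative storage protein, was called, from 10.90 and 10.42 in wild type to 8.45 and 8.11 in cmt3, with kyp at 7.98 and 8.24. Set against the wild type mean, the list's median was -1.10 on cmt3 replicate 1 and -2.86 on cmt3 replicate 2, and -0.30 and -0.54 on the kyp arrays. Cmt3 replicate 2 was below replicate 1 for 21 of the 23. LOX3, a lipoxygenase of jasmonate synthesis, read 15.92 and 15.89 in wild type, 15.77 on cmt3 replicate 1 and 12.87 on replicate 2. JAZ5, a repressor of jasmonate signalling, read 15.45 and 15.46, then 14.35 and 11.24. JAZ10, another, read 13.99 and 13.50 in wild type, 12.80 and 12.15 in kyp and 10.18 and 8.09 in cmt3. The list's wild type medians, 15.45 and 15.19, lie near the ceiling of the scale, where differences can be compressed.

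**Figure D4:**
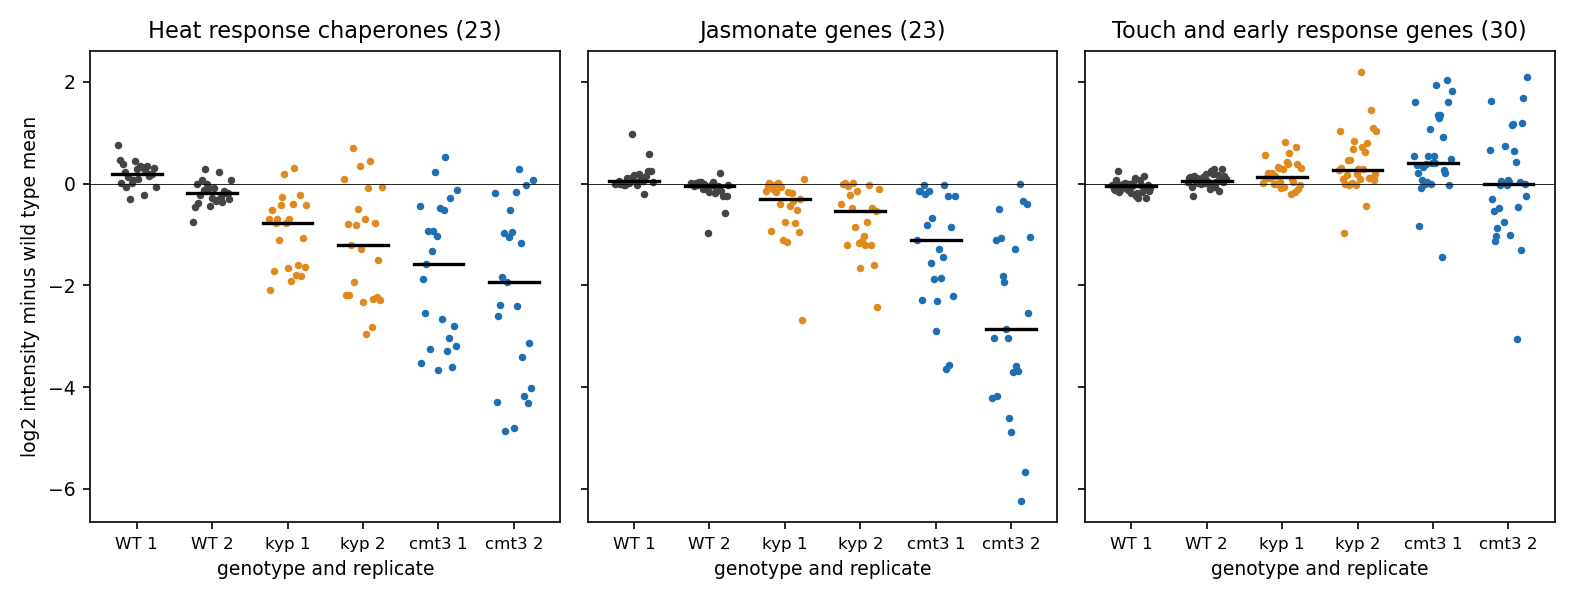
Log2 intensity minus the wild type mean for every measured member of 3 gene lists (points, ordered by locus within a column) on each of the 6 arrays (WT, wild type), with the median of each array as a bar. Chaperone medians are -1.59 and -1.94 on the cmt3 arrays, jasmonate medians -1.10 and -2.86, and medians of touch and early response genes 0.41 and -0.00.

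The heat response list differed less between the cmt3 arrays, with medians of -1.59 and -1.94, and stood at -0.77 and -1.21 in kyp. Set against the kyp array of the cmt3 slide its medians were -0.48 and -0.87, and with the slide as a block its median difference was -1.48. Touch and early response regulators, which handling and wounding induce within minutes, held no called gene. Of 30 members 11 had both cmt3 arrays above both wild type arrays (36.7%, close to the 32.4% over all models) and 4 below (13.3%, against 25%), and the median was 0.13, or 0.41 without cmt3 replicate 2 and -0.00 without cmt3 replicate 1. ERF104 read 12.98 and 13.14 in wild type and 14.88 and 15.16 in cmt3, and MYB51, a regulator of indole glucosinolates, 11.61 and 11.82 against 13.32 and 13.34. WRKY18 read 15.28 and 15.14 against 13.76 and 12.16. None of the 3 passed (adjusted p = 0.0819, 0.0651 and 0.13, limma). How leaves were handled before extraction is not given in the sources used here, and its part in these lists was not tested.

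Single gene models also differed between the 2 cmt3 arrays. On cmt3 replicate 2, 223 models were at least 4-fold below replicate 1 and 118 at least 4-fold above it. The same counts were 181 and 236 between the wild type arrays and 176 and 150 between the kyp arrays. AT2G41640 read between 13.98 and 14.64 on 5 arrays and 9.36 on cmt3 replicate 2, and VAR2, a chloroplast protease, between 15.76 and 15.96 and then 11.91. Such models have a large spread and were not called.

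The remaining lists held no called gene. Glucosinolate genes had a median of -0.44, and both cmt3 arrays lay below both wild type arrays for 13 of 20 (65%, against 25% over all models). Cmt3 replicate 2 was below replicate 1 for 19 of the 20, and the medians were -0.17 on replicate 1 and -0.71 on replicate 2. MYB28, a regulator of aliphatic glucosinolates, stood at 0.95 ± 0.11 (adjusted p = 0.0587, limma), and MYB34, a regulator of indole glucosinolates, at -2.01 ± 0.39. Sulfur supply genes had a median of -0.92 (-0.53 with the slide as a block) and 8 of 9 negative differences, none called, and ATSDI1, induced by sulfur shortage, read 10.53 and 10.93 in wild type and 9.32 and 8.63 in cmt3. No member was called and medians were within 0.4 of 0 for phosphate (0.10, 8 genes), iron (-0.23, 14), nitrate (-0.06, 5), sugar and dark starvation (0.09, 8), flavonoid (0.07, 9), stomatal (-0.08, 7) and cell division genes (0.23, 6). The members with the smallest p of these lists were SPX1 (-0.56), FRU (0.90), NRT1.1 (0.50), SEN1 (0.60), TT4 (0.53), MUTE (0.62) and CYCA1;1 (0.82).

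Among falls outside these lists, LRX2, an extensin of the cell wall, read 14.73 and 14.51 in wild type, 13.20 and 12.47 in kyp and 10.49 and 9.49 in cmt3. AT3G21320, of unknown function, read 11.72 and 11.80, then 10.08 and 9.09, then 7.97 and 7.66, and AT3G20340 read 9.32 and 9.43, then 8.07 and 8.10, then 6.19 and 5.95. Each of these 3 again had kyp between the other genotypes. CYP96A15, an alkane hydroxylase of wax synthesis, fell by 2.18, OFP1, a transcriptional repressor, by 1.84, EGY3, a chloroplast protein, by 1.19 and MLO12, of the family of powdery mildew susceptibility proteins, by 1.14.

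Several of the largest changes outside elements lay close to CMT3 on chromosome 1. Within 2.5 Mb of it, 8 of 1295 genes outside elements were called higher (0.618%) and 6 lower (0.463%, CMT3 included). From 2.5 to 5 Mb the counts were 1 and 3 of 1021, and on the rest of the genome 78 (0.305%) and 42 (0.164%) of 25580 beyond 5 Mb. AT1G73490, an RNA-binding protein 1.38 Mb from CMT3 (27636927 to 27638593), read 13.75 and 13.78 in wild type, 13.87 and 13.82 in kyp and 7.83 and 7.15 in cmt3. It was the largest fall on the array (-6.28 ± 0.24, adjusted p = 0.00726, limma). RLP13, a receptor-like protein 1.64 Mb away, read 11.42 and 11.30, then 11.33 and 11.38, then 7.94 and 8.13. DR4, a gene named for its repression by drought 1.32 Mb away, went up, from 5.75 and 5.56 in wild type and 5.91 and 7.15 in kyp to 10.52 on both cmt3 arrays.

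Of the 13 called genes within 2.5 Mb other than CMT3, 9 (69.2%) had a kyp difference within 0.5 of 0. Among the called genes outside elements on the rest of the genome, 16 of 124 (12.9%) did. AT1G73120 rose by 3.28 with kyp at -0.11, FUT13, a fucosyltransferase, by 1.51 with kyp at 0.07, AT1G72030, an acetyltransferase, by 1.55 with kyp at 0.06, and AT1G70430, a kinase, by 2.05 with kyp at 0.35. AT1G74010, annotated as a strictosidine synthase, fell by 2.51 on the log2 scale with kyp at -0.43. The other 4 were DR4 (kyp 0.88), FKF1, on the other side of CMT3 (kyp 0.57), AT1G70790 (-1.63 in cmt3 and -0.68 in kyp) and scpl6, a serine carboxypeptidase 1.30 Mb away (-1.73 in cmt3 and -2.18 in kyp). Whether the cmt3 plants carry other variants linked to the mutation is not given in the sources used here and was not tested. Without the models within 5 Mb of CMT3, 156 were called higher and 45 lower.

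**Figure D5:**
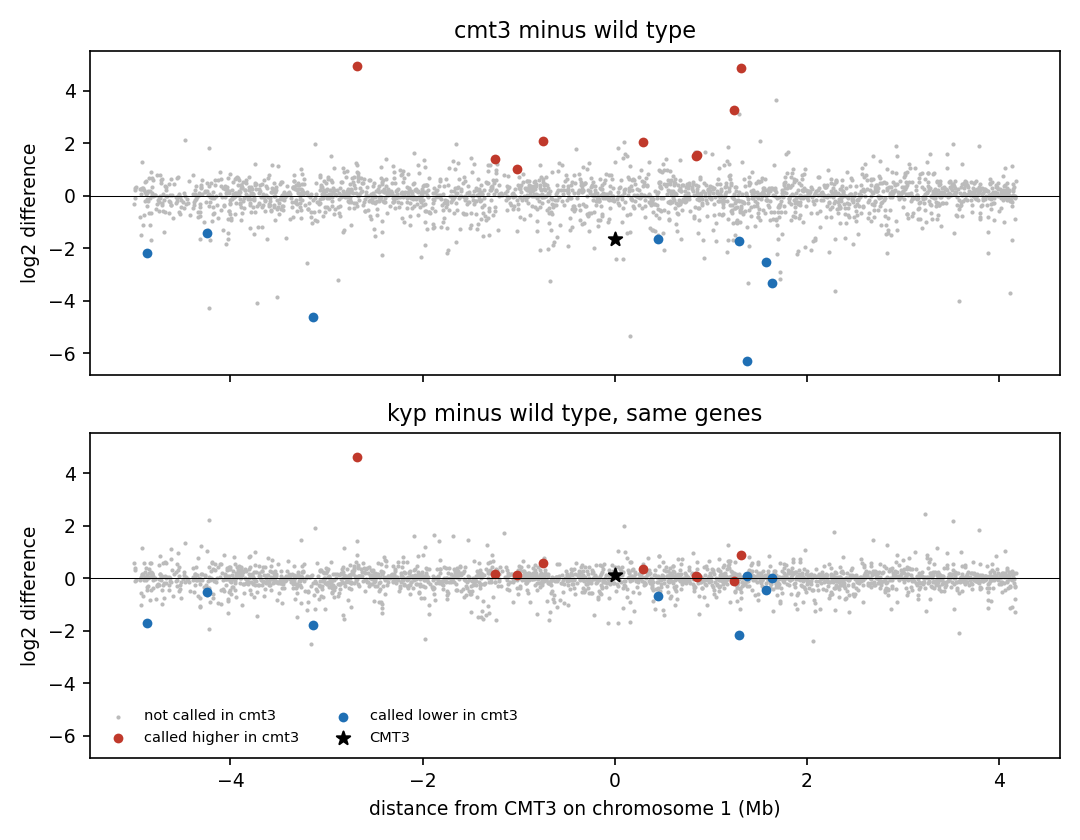
Log2 difference from wild type of genes outside elements (vertical axes) against distance from CMT3 on chromosome 1 in Mb, for cmt3 (upper panel) and for the same genes in kyp (lower panel). Genes called in cmt3 are red (higher) or blue (lower) and CMT3 is the star; AT1G73490 is the lowest point of the upper panel, at -6.28, and lies at 0.08 in the lower one.

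Set against kyp in the same fit, cmt3 was called higher for 6 gene models (0.0198%) and lower for 3 (0.00988%). The 6 were the LINE genes AT1G45030, AT2G15510 and AT3G43575, the pseudogenes AT1G45035 and AT3G32966 and AT4G18150, of unknown function. AT3G32966 read 8.40 and 8.30 in kyp and 11.98 and 12.13 in cmt3, and AT4G18150 read 10.36 and 10.12 against 12.89 and 13.02. The 3 called lower were AT1G73490, RLP13 and the pseudogene AT5G34800, which read 8.89 and 8.87 in wild type, 9.17 and 8.96 in kyp and 6.26 and 6.23 in cmt3. In all 9 models the 2 cmt3 arrays lay beyond all 4 others. Both mutants are set against the same wild type arrays, so the genes they share are not counted here. Side by side, the 170 genes called higher in cmt3 had a median difference of 1.81 in kyp, and the 55 called lower one of -1.16.

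Genes of the organelles were slightly lower and none was called. For 49 of 67 chloroplast genes both cmt3 arrays lay below both wild type arrays (73.1%, against 25% over all models), with a median of -0.18, and for 53 of 94 mitochondrial genes (56.4%), with a median of -0.39. The mitochondrial median was -0.21 on cmt3 replicate 1 and -0.57 on replicate 2. Complementary DNA was primed with oligo(dT), per the series description, and the wild type arrays themselves differed by 0.26 at the median of the mitochondrial genes.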

How the data were processed

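RNA of 6 leaf samples was measured on 1-colour (Cy3) NimbleGen arrays. The deposited values are linear intensities that the authors normalized by RMA, per the labels; RMA settings, scanner and software are not stated in those labels. The series value table holds the same numbers for all 30361 models. Values were transformed to log2 without a filter. The test was limma's moderated contrast (limma 3.58.1, R 4.3.3). A single model of genotype took in all 6 arrays, no block, with 3 residual and 1.41 prior degrees of freedom. A call needed an adjusted p (Benjamini-Hochberg, 30361 gene models) below 0.05. The fit was tested on simulated data. Detection and background values were not used here, and presence was not judged; precision is set by there being 2 arrays per genotype. Loci, descriptions and coordinates are those of the files (gene models marked Release 6); symbols came from RefSeq (TAIR10.1), which matched 29976 loci. Element genes and families were taken from the descriptions. Probe and promoter sequences were not used here.

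The members and the 24 gene lists (325 genes, 324 on the array) were chosen with earlier results of these data known. The rule for named genes took CMT3, the largest rises (10 element genes, 12 others), the 15 genes that fell most, up to 4 called members of each list, family and location class (otherwise the member with the smallest p), and the 2 largest changes of each superfamily with 3 or more called; other named genes were chosen after their values were seen. Alternatives were the 4 arrays alone, slide and replicate blocks, an intensity trend, robust moderation, a filter on the lowest 25%, 50 added before log2, quantile normalization, median centring and each array left out; leaving out models near CMT3 was added after seeing the data.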

Additional observations from a re-analysis of the deposited data

How the results depend on the processing

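The alternatives reuse the arrays that picked the 225 called genes, so a kept direction was in part fixed in advance. All 225 kept their direction in every alternative that included them, but the number of calls (limma, higher and lower) changed, and the cause was not tested. It was 33 and 6 with the 4 arrays alone, 51 and 18 with a replicate block, 0 and 0 with a slide block (2289 models had an unadjusted p under 0.05), 1211 and 1061 with an intensity trend, 309 and 183 without the lowest 25%, and 336 and 216 with 50 added. Robust moderation gave 141 and 37, quantile normalization 161 and 53 and median centring 157 and 51. For element genes the counts were 16 and 1, 29 and 0, 0 and 0, and 151 and 12 in the first 4 settings, and 2 lower under robust moderation. Leaving out 1 array gave 18 to 77 higher and 0 to 45 lower, and 9 to 33 and 0 to 2 element genes; without cmt3 replicate 1 falls (45) outnumbered rises (25). Those fits have fewer degrees of freedom, and where they leave 1 array its spread is assumed to equal that of the other groups. CMT3 stood between -1.69 and -1.56 throughout (without 1 array, -1.67 to -1.63). Its adjusted p was 0.0719 with the 4 arrays alone, with a value of -1.65, 0.0637 with the replicate block (-1.65) and 0.319 with the slide block (-1.56). The replicate numbers do not pair the arrays: deviations correlated at 0.00388 between wild type and cmt3, -0.123 between wild type and kyp and -0.039 between kyp and cmt3. Median differences of the jasmonate list were -2.86 without cmt3 replicate 1 and -1.10 without cmt3 replicate 2, and of the glucosinolate list -0.71 and -0.17.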
